A study of Mus musculus with 38 samples.

Results

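Ribosome footprints on 6 genes of the spectrin and ankyrin families, Sptan1, Sptbn1, Sptbn4, Ank1, Ank2 and Ank3, were followed in mouse primary cortical neurons by PL-Ribo-seq. The genes were chosen by name, from 22443 genes in the tables. Each gene was represented by its longest transcript (CDS and untranslated regions together), and its footprints were the counts in the coding sequence (CDS) of that transcript. In this method the ligase TurboID attaches biotin to its neighbours, marked ribosome complexes are recovered on streptavidin, and the stretches of RNA inside their ribosomes, shielded from micrococcal nuclease, are sequenced.

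The 38 libraries formed 14 groups. All neurons received cycloheximide (Chx, an elongation inhibitor) for 2 min and biotin for 30 min, according to the labels. For DHPG the paper's protocol gives 20 min of biotinylation instead. All neurons carried a lentivirus with either TurboID-PSD95 (PSD95-TurboID in the labels), which the elements of PSD95 take to dendrites, or Pan-TurboID, which carries none of them. Every culture yielded an input (all footprints) and a pulldown (footprints of biotinylated complexes), and those with the same replicate number were taken as a pair. The KCl experiment held 24 libraries, with 3 inputs and 3 pulldowns per bait from resting neurons and as many from neurons depolarized with 55 mM KCl for 1 h after 2 h in tetrodotoxin and DL-AP5. The DHPG experiment held 3 inputs and 3 pulldowns of TurboID-PSD95 neurons given 100 µM DHPG, which activates group I metabotropic glutamate receptors, during 10 min, likewise after 2 h in tetrodotoxin and DL-AP5. The experiment in which eIF4G2 was knocked down comprised 8 TurboID-PSD95 libraries, 2 inputs and 2 pulldowns from resting neurons and as many from neurons silenced and depolarized as above, all treated with 20 nM siRNA against eIF4G2, a translation initiation factor, for 72 h. The labels are at odds for the DHPG inputs and all knockdown libraries, whose descriptions say cytosol and whose virus field names PSD95-TurboID, which was used here. Libraries with a control siRNA were not analysed here, so that the comparators of the knockdown and of DHPG are neurons of the KCl experiment, and no silencing is stated for the resting ones among them. The bait varies in strength between neurons according to the study, and the labels do not say which embryos gave which culture.

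Spectrins are rod-like proteins built of repeats. An alpha chain (Sptan1, alphaII) pairs with a beta chain (Sptbn1, betaII, or Sptbn4, betaIV), and the resulting tetramers cross-link actin into the membrane skeleton, which in neurons forms a periodic lattice under the plasma membrane of axons and dendrites. Ankyrins (Ank1, ankyrin-R; Ank2, ankyrin-B; Ank3, ankyrin-G) fasten ion channels and adhesion molecules to that skeleton, and the giant neuronal forms of ankyrin-B and ankyrin-G each owe their size to a single very long exon. Ankyrin-G and betaIV spectrin are best known from the axon initial segment and the nodes of Ranvier, whereas betaII spectrin and ankyrin-B are spread along the axon.

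Several of these genes make proteins that differ at the ends or in inserted exons, so the sequences that tell the forms apart are given first, from the RefSeq genome GRCm38 (mm10), the assembly of the counts. In the case of Sptbn1, the transcript fixed by length (on chr11, minus strand, CDS 30109002 to 30197832) codes for a short form with its own first and last coding segments, while a long form starts and ends elsewhere. Capitals mark the start codon or the stop codon.
Sptbn1 long form, start, chr11:30219667-30219726, minus strand: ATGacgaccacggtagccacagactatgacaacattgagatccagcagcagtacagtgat
Sptbn1 short form, start, chr11:30197773-30197832, minus strand: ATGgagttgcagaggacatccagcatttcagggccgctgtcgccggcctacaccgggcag
Sptbn1 long form, end, chr11:30100496-30100555, minus strand: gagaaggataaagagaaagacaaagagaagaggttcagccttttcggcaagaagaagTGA
Sptbn1 short form, end, chr11:30109002-30109088, minus strand: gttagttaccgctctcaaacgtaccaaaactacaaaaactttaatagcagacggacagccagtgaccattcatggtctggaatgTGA

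The footprints lay on the ends of the long form. Its first coding segment (148 nt) held 9535 counts over the 38 libraries, against 40 in the first segment of the short form (109 nt). At the other end, the 4 last segments of the long form (675 nt together) held 26739 counts, against 8 in the tail of the short form (87 nt). The middle of Sptbn1, which both forms share, carries nearly all counts given below.

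In Sptan1 an insert of 60 nt separates the transcript used here (CDS 7437 nt, 56 segments, chr2, plus strand, 29978380 to 30031096) from the longest CDS (7497 nt). It is shown with its flanks, the segment in capitals, and the long exons of Ank2 and Ank3 are shown from the base pairs before them, with the AG that precedes the segment in capitals.
Sptan1 insert, chr2:30001088-30001171, plus strand: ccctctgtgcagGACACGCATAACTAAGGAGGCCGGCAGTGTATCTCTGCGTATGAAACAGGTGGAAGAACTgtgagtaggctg
Ank2 giant segment, start, chr3:126947748-126947819, minus strand: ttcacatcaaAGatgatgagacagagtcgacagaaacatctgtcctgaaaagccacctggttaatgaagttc
Ank3 giant segment, start, chr10:69986077-69986148, plus strand: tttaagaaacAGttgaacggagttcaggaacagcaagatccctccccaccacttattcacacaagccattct

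The Sptan1 insert collected 1070 counts in all, between 2 and 86 per library, at a median density of 0.138 times that of the rest of the CDS (0.0238 to 0.348 over the 38 libraries), well below the rest of the gene. The giant segment of Ank2 (chr3:126941610-126947807, 6198 nt) makes up 53.0% of the CDS used here (11703 nt in 45 segments, minus strand, 126923957 to 127339152). For Ank3 the transcript used here (5886 nt in 42 segments, chr10, plus strand, 69534222 to 70015633) skips the giant segment (chr10:69986089-69993762, 7674 nt), which is part of an annotated CDS of 8612 nt and held 113500 counts. Most of that CDS is the giant segment, and none of the annotated ATG starts of Ank3 belongs to it. For Ank1 the longest transcript (1719 nt in 16 segments, chr8, plus strand, 23058632 to 23099607) is annotated as a target of nonsense-mediated decay, and its 3′ untranslated region overlaps coding exons of other Ank1 transcripts, so that the longest Ank1 CDS (5724 nt) is given beside it. Sptbn4 (7686 nt in 35 segments, chr7, minus strand, 27357292 to 27442566) is the longest CDS of its gene, and 1 of its segments overlaps the predicted gene Gm20479, with which reads may be shared.

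Library totals ran from 5906281 to 35643247 counts, of which 2047166 to 14635947 lay in the CDSs of the 22443 transcripts. In the knockdown inputs Eif4g2, the target of the siRNA, averaged 284 (resting) and 331 (depolarized) CPM (counts scaled to the CDS total of the library), against means of 452 to 634 CPM in the other 5 input groups. Dlg4, which encodes PSD95 and whose elements the bait carries, averaged 1140 to 2346 CPM in TurboID-PSD95 pulldowns and 21.7 to 43.9 CPM in Pan-TurboID pulldowns. Summed over their marker lists, neuronal genes reached 4685 to 9961 CPM, astrocyte genes 209 to 1265 CPM, oligodendrocyte lineage genes 8.56 to 269 CPM, and microglial genes at most 19.2 CPM, with no marker at 0 in all libraries.

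The members had very different footprint densities, and their order hardly varied. RNA levels were not taken into account, so these are not rates of translation per RNA. Levels are given as CPM per kb of CDS, a scale on which genes can be compared. Over the 38 libraries Sptan1 ranged from 259 to 921 CPM per kb (median 553), Sptbn1 from 139 to 487 (median 236) and Ank2 from 99.0 to 281 (median 151). Ank3 followed at 32.4 to 84.3 CPM per kb (median 53.4), Sptbn4 at 5.72 to 30.8 (median 12.3) and Ank1 at 1.66 to 10.0 (median 3.46), the last from only 6 to 136 counts. The order Sptan1, Sptbn1, Ank2, Ank3, Sptbn4, Ank1 held in 33 libraries, and in the other 5 Ank2 stood above Sptbn1. Sptbn1 and Ank2 overlapped over the libraries, whereas, on the transcripts used here, the lowest Ank2 value lay above the highest Ank3 value and the lowest Ank3 value above the highest Sptbn4 value. On the longest CDS, which for Ank3 adds the giant segment, Ank3 ran from 30.1 to 196 CPM per kb (median 55.6) and overlapped Ank2, Sptbn1 and Sptbn4, and in 4 libraries it stood above Sptbn1. Within each library it was above Sptbn4 and below Ank2 on either transcript. With the longest Ank1 CDS, which is less dependent on the decay transcript, Ank1 in the DHPG inputs read 3.18, 2.85 and 2.83 CPM per kb and stayed the lowest member.

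**Figure D1:**
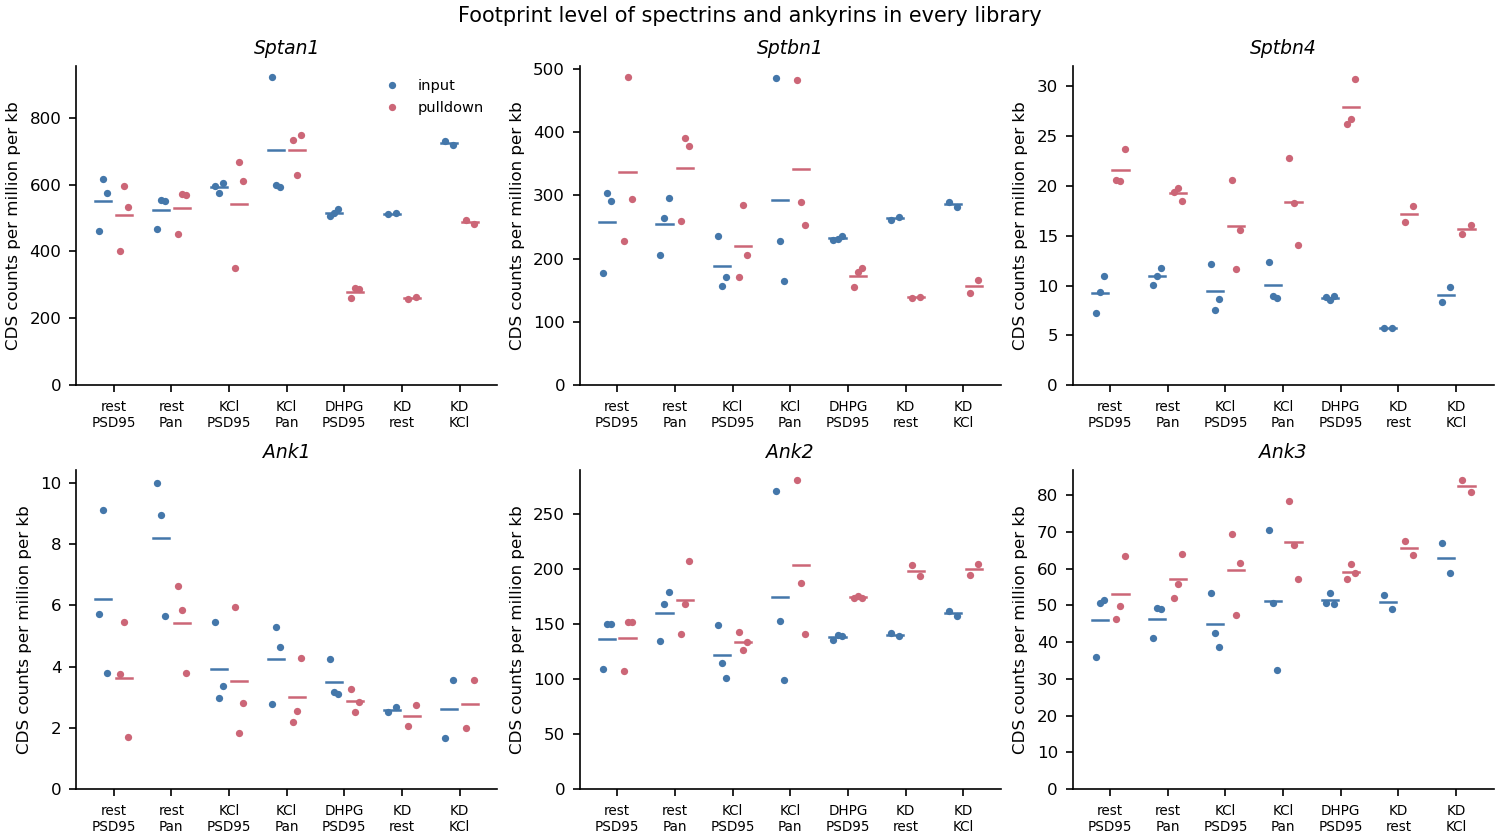
Footprint density of each gene in CPM per kb of CDS (vertical axes from 0, a separate scale per gene) in the 14 groups, with inputs in blue, pulldowns in red, 1 point per library and a line at the group mean. The mean of the Sptbn4 pulldowns lies above that of their inputs in all 7 sets, while Sptan1 pulldowns of the DHPG and resting knockdown groups (259 to 290 CPM per kb) lie below every input.

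The first question was which members were over- or under-represented among the ribosomes near the bait, by comparison of each pulldown with its input. Sptbn4, the beta chain of the axon initial segment, was higher in the pulldown in every comparison. In resting TurboID-PSD95 neurons it measured 7.23, 9.39 and 11.0 CPM per kb in the inputs and 20.6, 20.5 and 23.7 in the pulldowns, with no overlap. That is 2.40-fold, a log2 fold change of 1.26 (SE 0.26, n = 3 per group, adjusted p = 0.0035 in edgeR's quasi-likelihood test). Sptbn4 was the sole member to pass the test there, where 11.5% of the 13003 genes tested were higher and 13.5% lower. In resting Pan-TurboID neurons, inputs of 10.1, 11.0 and 11.8 CPM per kb faced pulldowns of 19.4, 19.8 and 18.5. The bait without a localization signal thus gave a separation as well, of 0.86 (SE 0.25, adjusted p = 0.037), and again Sptbn4 alone was called, beside 4.52% of genes higher and 5.01% lower.

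After KCl, Sptbn4 stood at 12.2, 7.58 and 8.67 CPM per kb in TurboID-PSD95 inputs and at 20.6, 11.6 and 15.6 in their pulldowns, which overlap because the first input is high. Each pulldown exceeded its own input, and the fitted log2 fold change was 0.80 (SE 0.26, adjusted p = 0.041). It was 0.94 (SE 0.25, adjusted p = 0.030) for Pan-TurboID, whose depolarized pulldowns (22.8, 18.3 and 14.1) all lay above their inputs (12.4, 8.94 and 8.73). Sptbn4 was the single member called in both, with 8.14% of genes higher and 4.33% lower in the TurboID-PSD95 comparison and 5.13% and 3.62% in the Pan-TurboID comparison.

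These 4 calls for Sptbn4 rest on few libraries. Without replicate 3 the adjusted p in resting TurboID-PSD95 neurons was 0.14 at a log2 fold change of 1.34, and the other 3 calls were lost without replicate 2 or without replicate 3 (adjusted p from 0.10 to 0.32), with log2 fold changes between 0.73 and 1.01. The same 3 calls were lost when the trend over CDS length was removed (Sptbn4 at 0.39, 0.12 and 0.37). Sptbn4 stayed above its input in all 19 pairs of same-numbered libraries, by 0.62 to 1.77 on the log2 scale of CDS shares.

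The other members did not pass the test in the 4 comparisons of the KCl experiment. Sptan1, the alpha chain shared by both beta chains, had log2 fold changes of -0.09 to 0.07, and Ank2 of 0.04 to 0.27, with 95% intervals that span -0.56 to 0.88 for Ank2. Sptbn1, the general beta chain, lay above its input in all 6 resting pairs, by 0.02 to 0.68, but its fitted values of 0.26 to 0.48 carried an SE of 0.38. In the lowest of these pairs, TurboID-PSD95 replicate 3, the median of all genes was above Sptbn1, at 0.12. Ank3 was at 0.23 to 0.46 with an SE of 0.26. On its longest CDS, with the giant segment, Ank3 gave 0.39 and 0.36 at rest (SE 0.36 and 0.35) but 0.95 (SE 0.36, adjusted p = 0.074) and 0.84 (SE 0.36, adjusted p = 0.12) after KCl for TurboID-PSD95 and Pan-TurboID, still without a call. Ank1 lay below its input in all 6 resting pairs on the decay transcript (by 0.58 to 1.15 on the log2 scale), at fitted values of -0.69 (SE 0.47) and -0.57 (SE 0.46). On the longest Ank1 CDS the same comparisons gave 0.36 (SE 0.32) and 0.18 (SE 0.31), so the sign depended on the transcript.

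With the replicate number as a block, which removes what a culture's libraries have in common, more members were called, and so were more genes of the whole table. In resting Pan-TurboID neurons they were Sptbn1 (0.47, adjusted p = 0.045), Sptbn4 (0.86, adjusted p = 3.4e-05) and Ank3 (0.35, adjusted p = 0.039), where 15.4% of genes were higher in the blocked fit. In depolarized TurboID-PSD95 neurons they were Sptbn4 (0.78, adjusted p = 0.00012) and Ank3 (0.45, adjusted p = 0.0093), beside 17.2% of genes higher. In depolarized Pan-TurboID neurons they were Sptbn4 (0.92, adjusted p = 1.9e-05), Ank2 (0.34, adjusted p = 0.022) and Ank3 (0.51, adjusted p = 0.0042), beside 16.3% of genes, all higher in the pulldown.

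No member was called for a difference between the baits or for a change of enrichment with KCl. The enrichment of Sptbn4 with TurboID-PSD95 exceeded that with Pan-TurboID by 0.13 (SE 0.25, 95% interval -0.37 to 0.62), over both states, and 0.00769% of genes were called in either direction. Its enrichment with TurboID-PSD95 differed by -0.47 after KCl (95% interval -1.17 to 0.24), where 0% of genes were called. By edgeR's quasi-likelihood test, the whole table gave 1 call and no call in these comparisons, with 169 and 235 genes at an unadjusted p under 0.05, and DESeq2 called no member either. These gene numbers are lower than such a threshold gives when no gene differs, so the test was conservative here. It compares group means and does not use the pairing of input and pulldown. The absence of calls therefore does not show that the baits or states are alike.

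The DHPG and knockdown experiments separated the alpha chain from the ankyrins. Sptan1 was lower in the DHPG pulldowns, at 261, 290 and 287 CPM per kb against 507, 514 and 527 in the inputs. Its log2 fold change was -0.67 (SE 0.05, adjusted p = 5.6e-10 in edgeR's quasi-likelihood test), and the groups lie far apart. Sptbn1 fell by less, from 229, 231 and 236 to 155, 179 and 184 CPM per kb, again without overlap. The fit gave -0.22 (SE 0.06, adjusted p = 0.0027). Sptbn4 went the other way, from 8.89, 8.51 and 9.0 CPM per kb to 26.2, 26.7 and 30.8. This was 3.67-fold, or 1.87 (SE 0.08, adjusted p = 3.7e-13) on the log2 scale, above 99.2% of the genes tested.

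Ank2 rose from 135, 140 and 138 CPM per kb in the DHPG inputs to 173, 175 and 174 in the pulldowns (log2 fold change 0.55, SE 0.05, adjusted p = 4.8e-09). Ank3 rose from 50.6, 53.5 and 50.4 to 57.3, 61.2 and 58.9 CPM per kb (0.41, SE 0.06, adjusted p = 4.0e-06). In both ankyrins every pulldown lay above every input, and the 3 pairs were nearly alike. Ank1 on the decay transcript did not pass (-0.10, SE 0.21). On the longest Ank1 CDS the pulldowns read 5.84, 5.66 and 6.42 CPM per kb against inputs of 3.18, 2.85 and 2.83, a log2 fold change of 1.19 (SE 0.11, adjusted p = 2.2e-08). In total 3 of the 6 members were higher and 2 lower with DHPG, where 40.5% of 12257 genes were higher and 39.3% lower, so that being called is the common case in that experiment.

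The fitted values stand relative to the TMM scaling, which raised the median log2 ratio of all genes by 0.21 in the DHPG comparison, by 0.11 in the resting knockdown and by 0.10 in the depolarized knockdown. Ratios of plain CDS shares are lower by about that much. In such shares Sptbn1 pairs with DHPG were at -0.57, -0.36 and -0.36 and Ank2 pairs at 0.35, 0.33 and 0.33. All directions called with TMM in these 3 comparisons were the same with plain CDS totals.

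In resting knockdown neurons the pattern had the same signs. Sptan1 measured 513 and 514 CPM per kb in the inputs and 259 and 265 in the pulldowns (log2 fold change -0.86, SE 0.06, n = 2 per group, adjusted p = 3.3e-11 in edgeR's quasi-likelihood test). Sptbn1, at 262 and 266 against 139 and 140, was lower by nearly as much (-0.81, SE 0.07, adjusted p = 2.3e-09). Both chains were well outside the spread of their replicates. Sptbn4 rose from 5.72 and 5.73 to 16.4 and 17.9 CPM per kb (1.69, SE 0.15, adjusted p = 1.3e-09). Ank2 stood at 141 and 139 against 203 and 193 (0.61, SE 0.07, adjusted p = 4.6e-08), and Ank3 at 52.7 and 49.1 against 67.4 and 63.6 (0.48, SE 0.09, adjusted p = 0.00018). With 22.1% of 12223 genes higher and 23.4% lower, 3 members were higher and 2 lower.

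In depolarized knockdown neurons the same 5 members were called in the same directions, beside 24% of genes higher and 24.8% lower. Sptan1 was at 731 and 718 CPM per kb in the inputs and 494 and 483 in the pulldowns (-0.47, SE 0.06), and Sptbn1 at 290 and 282 against 146 and 167 (-0.77, SE 0.08). Sptbn4, at 8.33 and 9.87 against 15.2 and 16.1, was higher by 0.89 (SE 0.16). Ank2 (162 and 157 against 194 and 205) was higher by 0.42 (SE 0.07), and Ank3 (66.9 and 58.8 against 84.3 and 80.8) by 0.49 (SE 0.10). Adjusted p-values ran from 4.8e-09 for Sptbn1 to 0.00013 for Ank3, and in these 5 members the pulldowns did not overlap the inputs. The share of all genes without overlap was not counted, here or in the other comparisons. Ank1 on the decay transcript, with 9 to 14 counts in these libraries, gave 0.23 (SE 0.73).

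The ankyrin calls of both experiments depend on how CDS length is handled. When the trend of log2 fold change over CDS length was removed, Ank2 and Ank3 were lower than genes of their length in the DHPG pulldowns (-0.63 and -0.51) and in the knockdown pulldowns (-0.46 and -0.37 at rest, -0.59 and -0.33 after KCl), and Sptbn4 in the depolarized knockdown fell to -0.0069. For Ank3 the trend was removed only on the transcript that skips its giant segment.

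**Figure D2:**
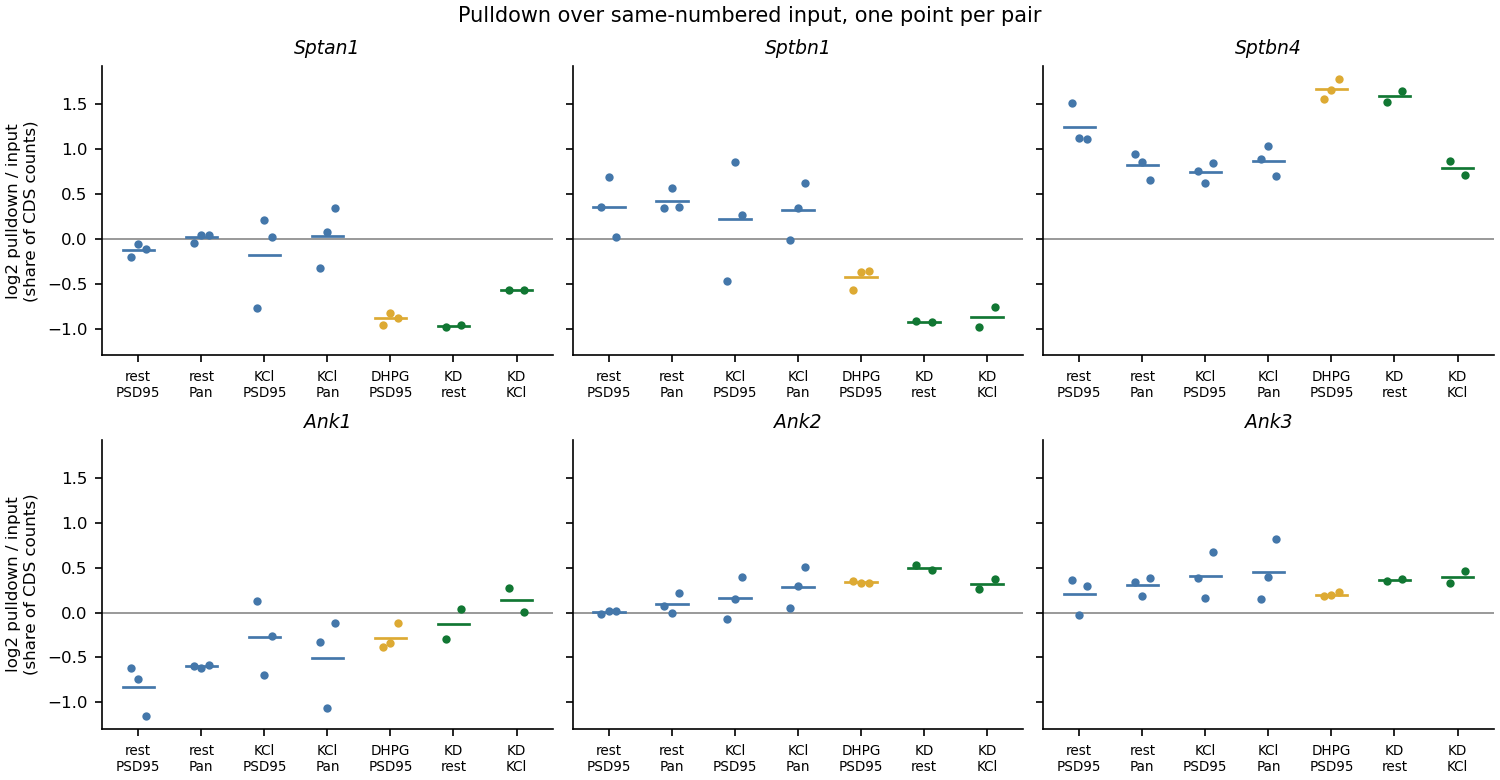
Log2 ratio of pulldown to input for each pair of same-numbered libraries, from shares of all CDS counts without TMM (vertical axis), in the 7 sets of pairs, with 1 point per pair and a line at the mean. All 19 Sptbn4 pairs lie above 0 (0.62 to 1.77), and all 7 pairs of the DHPG and knockdown sets lie below 0 for Sptan1 and Sptbn1 and above 0 for Ank2 and Ank3.

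The response to KCl was the second comparison, made within each fraction. No member passed the test in the inputs of both baits together, where 6.33% of genes were higher and 9.02% lower in depolarized neurons. Sptan1 gave 0.30 (SE 0.17, adjusted p = 0.23), and the depolarized Pan-TurboID inputs of 921, 599 and 593 CPM per kb against 466, 554 and 552 at rest show how far a single library stands out. That library, replicate 1, is also the input with the low CDS share given above. Ank1 was at -0.78 (SE 0.33, adjusted p = 0.12) on the decay transcript and at -0.69 (SE 0.23, adjusted p = 0.042) on its longest CDS. Without replicate 1, Sptbn1 (-0.71, adjusted p = 0.0053) and Ank2 (-0.49) were lower after KCl.

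In TurboID-PSD95 pulldowns Sptbn1 stood at 171, 284 and 206 CPM per kb after KCl and at 228, 487 and 295 at rest, a log2 difference of -0.61 (SE 0.38, adjusted p = 0.38) with overlapping groups. In each of the 3 same-numbered sets the depolarized value was the lower one, and with the replicate number as a block the difference was -0.54 (SE 0.43, adjusted p = 0.54). Sptbn4 gave -0.41 (SE 0.25) there, and no member was called, among 6.58% of genes called in either direction. Without replicate 1 both beta chains were called lower after KCl, Sptbn1 by -0.72 (adjusted p = 0.048) and Sptbn4 by -0.74 (adjusted p = 0.036). In Pan-TurboID pulldowns, where 5.03% of genes were called in either direction, the member nearest to a call was Sptan1 at 0.46 (SE 0.23, adjusted p = 0.29).

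Under the knockdown, with tight pairs of replicates, KCl was accompanied by higher Sptan1 in both fractions. The inputs rose from 513 and 514 to 731 and 718 CPM per kb (0.51, SE 0.06, adjusted p = 8.2e-07), and the pulldowns from 259 and 265 to 494 and 483 (0.90, SE 0.06, adjusted p = 4.6e-11 in edgeR's quasi-likelihood test). Of the 6 members, 4 were higher in the inputs, where 8.91% of genes were higher and 10.3% lower: Sptan1, Sptbn4 (0.67, adjusted p = 0.0027), Ank3 (0.32, adjusted p = 0.017) and Ank2 (0.20, adjusted p = 0.035). In the pulldowns 2 were higher, Sptan1 and Ank3 (0.34, SE 0.10, adjusted p = 0.012), among 10.2% of genes higher and 12% lower. Sptbn1 (0.13 and 0.17) and Ank1 did not pass in either fraction. The call for Ank2 in the inputs was lost on leaving out any single knockdown input library (adjusted p from 0.13 to 0.29) and in the likelihood ratio test (0.090), that for Ank3 on leaving out resting replicate 1, resting replicate 2 or depolarized replicate 1 (0.086 to 0.26), and that for Sptbn4 without depolarized replicate 2 (0.065). In the pulldowns that for Ank3 was lost without resting replicate 2 (0.079) or depolarized replicate 1 (0.067), and also on its longest CDS (0.19, SE 0.08, adjusted p = 0.087), where the inputs gave 0.49 (SE 0.08, adjusted p = 5.7e-05). Sptbn1 was past the threshold without depolarized replicate 1 (0.25, adjusted p = 0.024). Leaving out a library leaves 1 in a group of 2, so in these fits that library is assumed to vary like those of the other groups.

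DHPG and knockdown libraries were also set against TurboID-PSD95 libraries of the KCl experiment. The treatment, any silencing before it, any difference in biotin time and the experiment cannot be told apart in these comparisons. Nor can a change in the number of cells that express a gene and a change per cell. In the inputs no member was called against those comparators by edgeR's quasi-likelihood test on the transcripts used here, where 32.8% of 12787 genes with DHPG and 15.9% of 13180 genes with knockdown were called in either direction. Sptan1 inputs, for example, were 507 to 527 CPM per kb with DHPG and 462 to 617 at rest. In Sptan1 and Ank3 the log2 differences with DHPG were 0.00 (SE 0.14) and 0.26 (SE 0.14). Ank1 inputs on the decay transcript read 4.23, 3.16 and 3.11 CPM per kb with DHPG and 5.72, 9.11 and 3.78 at rest, with overlap. Nearest to a call under the knockdown were Ank3 at 0.34 (SE 0.16, adjusted p = 0.15) and Ank1 at -0.91 (SE 0.44, adjusted p = 0.17). With the CDS length trend removed, Ank3 was called higher in the DHPG inputs (0.45, adjusted p = 0.043) and Sptbn4 lower in the knockdown inputs (-0.59, adjusted p = 0.010), and on its longest CDS Ank1 was called lower in the knockdown inputs (-0.81, adjusted p = 0.0493). On the longest CDS of Ank3 the sign with DHPG was the opposite (-0.21, SE 0.19, adjusted p = 0.43), and the knockdown value was 0.09 (SE 0.18, adjusted p = 0.79).

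The pulldowns did differ. Sptan1 was lower in DHPG pulldowns than in resting pulldowns (402, 595 and 533 CPM per kb) by a log2 difference of -0.64 (SE 0.14, adjusted p = 0.0016), with no overlap. Sptbn4 was higher by 0.61 (SE 0.14, adjusted p = 0.0017), Ank2 by 0.58 (SE 0.15, adjusted p = 0.0042) and Ank3 by 0.40 (SE 0.14, adjusted p = 0.029). The 3 members higher and 1 lower compare with 21.7% of genes higher and 25.9% lower, and TMM raised the median of all genes by 0.24 there. Sptbn1 missed the threshold (-0.74, SE 0.28, adjusted p = 0.052) and passed it without replicate 1 (-0.90, adjusted p = 0.0038). Ank3 lost the call with plain CDS totals (0.16, adjusted p = 0.33), without replicate 1 (adjusted p = 0.081) and without replicate 2 (0.18), while on its longest CDS it was higher by 0.72 (SE 0.19, adjusted p = 0.0064), and both ankyrins lost it with the CDS length trend removed (Ank2 at 0.42, Ank3 at 0.23).

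Knockdown pulldowns, taken over both states, had lower Sptan1 (-0.50, SE 0.16, adjusted p = 0.020) and Sptbn1 (-0.83, SE 0.21, adjusted p = 0.0048) and higher Ank2 (0.61, SE 0.15, adjusted p = 0.0040) and Ank3 (0.44, SE 0.16, adjusted p = 0.038) than pulldowns without knockdown. The Sptan1 value averages 2 states that did not look alike, and no test was made within each state. Its resting knockdown pulldowns (259 and 265 CPM per kb) lay below the 3 resting ones without knockdown (402, 595 and 533), and its depolarized ones (494 and 483) lay among the depolarized ones without knockdown (350, 668 and 611). For Ank3 the size turned on the transcript, since on the longest CDS the difference was 1.46 (SE 0.18, adjusted p = 3.5e-06), from 161 to 196 CPM per kb against 42.1 to 87.0 without overlap. Those 2 members higher and 2 lower stand against 12% of genes higher and 17% lower. All 4 calls were lost without replicate 2 (adjusted p from 0.13 to 0.44), Sptan1 also without replicate 3 (0.14) and Ank3 without replicate 1 (0.14). Without replicate 1 or 2 each knockdown group holds 1 library, assumed to vary like those without knockdown. With the CDS length trend removed, Ank2 and Ank3 were at -0.0209 and -0.0245. Sptbn4 did not pass (-0.12, SE 0.18), since its resting knockdown pulldowns (16.4 and 17.9 CPM per kb) lay below the resting pulldowns without knockdown (20.6, 20.5 and 23.7) and its depolarized ones among theirs.

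These coding sequences are long, so the counts were next divided along the CDS. Whole segments were assigned to the first, middle or last of 3 parts by the middle of their position in the CDS. The count per nt of the last part was divided by that of the first part. Parts are unequal where a segment is long. The giant segment of Ank2 (53.0% of its CDS, with its middle at 62.1%) fell in the middle part and entered neither count. Pulldowns were richer in the last part than inputs. Ank3 in resting TurboID-PSD95 neurons had ratios of 0.495, 0.347 and 0.356 in the inputs and 1.06, 0.900 and 1.06 in the pulldowns, so that a slope towards the start in the input was flat in the pulldown. The shift was 1.37 on the log2 scale (SE 0.29, adjusted p = 0.00032 in edgeR's quasi-likelihood test, over resting and depolarized libraries). Sptbn1 (0.66, SE 0.26, adjusted p = 0.038), Sptbn4 (0.73, SE 0.27, adjusted p = 0.028) and Ank1 (2.74, SE 1.05, adjusted p = 0.031) were called as well, 4 of 6 members where 46.8% of 10347 genes were higher. The Ank1 call rests on the decay transcript, with 6 to 46 counts per resting and 16 to 23 per depolarized TurboID-PSD95 pulldown before division into parts. Its ratio could be formed in only 2 of the 3 resting pulldowns. The median shift was 0.69 over the members and 1.29 over all genes. With 2 parts of the CDS, assigned in the same way, in place of 3, Ank3 alone was called. Leaving out replicate 2 or 3 also left Ank3 alone, while Sptbn4 lost the call without replicate 1 as well (adjusted p = 0.071). With the replicate number as a block all 6 members were called, Sptan1 (0.28, adjusted p = 0.033) and Ank2 (0.45, adjusted p = 0.0033) in addition, beside 54.5% of genes.

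For Pan-TurboID the shift was called in Sptbn1 (0.65, SE 0.26, adjusted p = 0.047) and Ank3 (1.11, SE 0.28, adjusted p = 0.0028), beside 42.1% of genes higher, with a median of 0.57 over the members and 1.16 over all genes. The call for Sptbn1 was lost without replicate 2 or 3 and that for Ank3 without replicate 3 (adjusted p = 0.073), and Ank1 was called without replicate 1 (2.59, adjusted p = 0.049). The replicate block added Sptan1 (0.43, adjusted p = 0.0015), Ank1 (2.50, adjusted p = 0.039) and Ank2 (0.48, adjusted p = 0.0018), beside 51.2% of genes. KCl was not followed by a called shift of any member, in the inputs (2.4% of genes called in either direction) or in TurboID-PSD95 pulldowns (0.174%). Sptan1 had ratios of 0.736 to 0.906 in resting and 0.549 to 0.616 in depolarized TurboID-PSD95 inputs, but 0.577 to 1.05 in depolarized Pan-TurboID inputs.

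With DHPG all 6 members shifted towards the end of the CDS, as did 72.6% of 9506 genes. Ank2, whose ratios were 0.559, 0.521 and 0.565 in the inputs and 1.34, 1.27 and 1.39 in the pulldowns, shifted by 1.28 (SE 0.08, adjusted p = 2.5e-14). Ank3 went from 0.531, 0.521 and 0.530 to 1.24, 1.45 and 1.27 (1.32, SE 0.10, adjusted p = 1.8e-12). In the spectrins the step was smaller. Sptbn1 went from 0.703, 0.648 and 0.669 to 1.2, 1.31 and 1.31 (0.92, SE 0.09), Sptbn4 shifted by 0.58 (SE 0.13), and Sptan1, from 0.628, 0.574 and 0.602 to 0.740, 0.761 and 0.841, by 0.38 (SE 0.08). Ank1 shifted by 1.38 (SE 0.56, adjusted p = 0.027), a call lost without replicate 1 or 2 (adjusted p = 0.10). The members' median was 1.10 and that of all genes 1.54, a value that no member reached. Between the first and the last segment alone, only Sptan1 (1.755), Sptbn4 (2.66) and Ank3 (3.15) had counts enough for the test with DHPG, and these 3 were called.

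Under the knockdown, 4 members shifted in the same direction, as did 55.1% of 9520 genes. Ank2 had ratios of 0.499 and 0.488 in resting inputs and 1.73 and 1.53 in resting pulldowns (over both states 1.62, SE 0.10, adjusted p = 2.7e-13). Ank3 shifted by 1.41 (SE 0.14), Sptbn4 by 1.15 (SE 0.27) and Sptbn1 by 0.33 (SE 0.10, adjusted p = 0.0067). Sptan1, with 0.705 and 0.726 against 0.767 and 0.832 at rest, did not pass (0.12, SE 0.08, adjusted p = 0.21). The medians were 1.28 for the members and 1.46 for all genes. Between the first and the last segment, Sptan1 (1.27) and Sptbn4 (5.15) were called under the knockdown, Ank3 was not (1.99, adjusted p = 0.083), and the other members could not be tested.

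Segment by segment, pulldowns fell short at the start of the CDS, though not only there. Such counts were made for the members only, without a share over all genes. Among segments with at least 20 counts in both fractions, each segment within the first 500 nt lay below its input, in every member measured and in all 3 experiments. With DHPG those segments reached -2.12 and -2.04 on the log2 scale for Sptan1, -2.31 to -1.29 for Ank2 and -1.94 to -0.98 for Ank3. Few segments were measured there, from 1 (Sptbn4, knockdown) to 5 (Ank3, KCl experiment). Under the knockdown the 2 of Ank3 were at -0.64 and -0.18, and its lowest value, -2.02, lay at nt 649 to 747. The lowest Sptbn1 value in the KCl experiment, -0.73, lay at nt 1026 to 1143. Further on the genes parted. In Sptan1 all 52 measured segments stayed below the input with DHPG (median -0.84), and 49 of 52 under the knockdown. In Sptbn4, by contrast, 19 of 22 segments lay above the input with DHPG and 15 of 16 under the knockdown, and in the KCl experiment 30 of 33. Ank3 crossed over: 21 segments lay below and 18 above with DHPG, with the highest value (1.95) in segment 40, nt 4760 to 5438. Ank2 had 22 below and 18 above. For Sptbn1 the crossing depended on the experiment, with 22 of 30 segments above the input in the KCl experiment, 24 of 30 below with DHPG and 27 of 30 below under the knockdown.

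**Figure D3:**
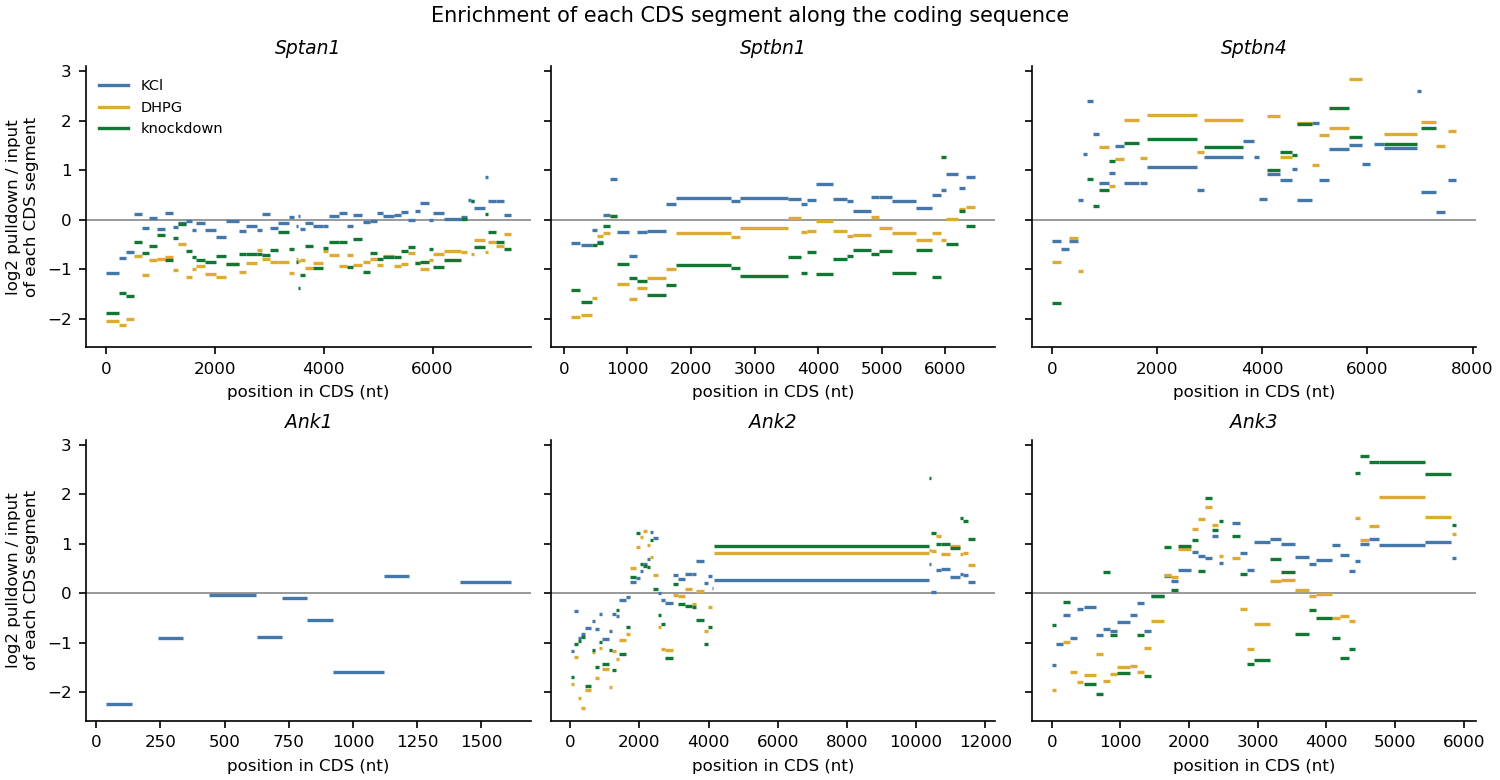
Log2 ratio of pulldown to input for each CDS segment with at least 20 counts in both fractions (vertical axis), against the position of the segment in nt from the start codon (horizontal axis), summed per experiment: KCl blue, DHPG yellow, knockdown green. The first 500 nt lie below 0 for every member measured, and Sptan1 stays below 0 with DHPG. Beyond the start Ank2 and Ank3 have segments on both sides of 0. Their highest DHPG values lie at nt 2116 to 2214 and nt 4760 to 5438.

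The first coding segment of the Sptbn1 long form, which the transcript used here lacks, was likewise lower in the pulldowns. Relative to the rest of Sptbn1 its density was 1.52, 1.61 and 1.64 in the DHPG inputs and 0.568, 0.717 and 0.585 in the DHPG pulldowns. Inputs of the KCl experiment ranged from 0.798 to 3.87 and their pulldowns from 0.310 to 1.63, with overlap. Pair by pair it was lower in the pulldown in all 12 of them, by log2 ratios from -2.30 to -0.71. The same held in all 4 knockdown pairs (-1.49 to -0.62). Its 4 last segments had densities of 0.767, 0.770 and 0.80 in the DHPG inputs and 1.11, 0.926 and 0.947 in the pulldowns. In resting knockdown neurons they were 0.691 and 0.766 against 0.814 and 1.005, but in depolarized ones the order was the opposite, with 0.682 and 0.745 in the inputs against 0.466 and 0.374 in the pulldowns. In the KCl experiment 9 of 12 pairs lay above the input, by log2 ratios from -0.58 to 0.62, and in depolarized TurboID-PSD95 neurons 1 of 3.

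The longest coding segment of each transcript was tested against the other segments of the same CDS. For Ank2 that is the giant segment, and for Ank3, whose transcript skips the giant segment, it is a segment of 679 nt. In the KCl experiment no longest segment of any member passed the test against the rest of its CDS, with 22.8% of 11576 genes called in either direction for TurboID-PSD95 and 17.5% for Pan-TurboID, and 0.872% and 0.0691% for the KCl response of inputs and of TurboID-PSD95 pulldowns. Without replicate 1 the 679-nt segment of Ank3 was called for TurboID-PSD95 (1.02, adjusted p = 0.0088), and with all replicates it was not (0.47, adjusted p = 0.31). The density of the Ank2 giant segment, relative to the other segments, was 0.456 to 0.820 in those 12 inputs and 0.667 to 0.957 in the 12 pulldowns. Pair by pair it was higher in the pulldown in 10 of 12, all but 2 resting TurboID-PSD95 pairs, by log2 ratios from -0.12 to 0.57. With the replicate number as a block it was called for Pan-TurboID (0.31, SE 0.12, adjusted p = 0.0446), where 11.3% of genes rose, and not for TurboID-PSD95 (0.27, SE 0.12, adjusted p = 0.082). With DHPG it was 0.578, 0.554 and 0.528 in the inputs and 1.03, 1.02 and 0.992 in the pulldowns, a change of 0.87 (SE 0.08, adjusted p = 1.0e-10). Under the knockdown it went from 0.621 and 0.581 to 1.37 and 1.39 at rest, and from 0.636 and 0.622 to 1.32 and 1.24 after KCl (1.11, SE 0.09, adjusted p = 4.8e-10). In both experiments the giant exon of ankyrin-B was under-represented in the input and level with, or above, the rest of the CDS in the pulldown. The rest of the CDS includes the start, where pulldowns were low. From the first to the last part of the CDS, the median shift of all genes was 1.54 with DHPG and 1.46 under the knockdown. Whether the giant segments of Ank2 and Ank3 differ from other segments at such positions was not tested.

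The 679-nt segment of Ank3 (segment 40) rose by 1.80 (SE 0.19, adjusted p = 1.8e-09) with DHPG and by 2.37 (SE 0.23, adjusted p = 1.4e-08) under the knockdown. It was sparsely read in both fractions. Its mean density relative to the other segments was 0.071 in the DHPG inputs and 0.245 in the pulldowns. Under the knockdown it was 0.093 against 0.470 at rest and 0.089 against 0.436 after KCl. The giant segment, which lies outside this transcript, had a density relative to the transcript's segments of 0.694, 0.685 and 0.728 in the DHPG inputs and 1.54, 1.44 and 1.34 in the DHPG pulldowns. In resting knockdown neurons it was 0.678 and 0.699 against 2.61 and 2.65, and after KCl 0.727 and 0.811 against 2.19 and 2.56. These groups are wide apart, whereas in the KCl experiment inputs (0.815 to 1.3) and pulldowns (0.842 to 1.73) overlapped. Pair by pair it was higher in the pulldown in 9 of those 12, all 6 depolarized pairs among them (log2 ratios from 0.16 to 0.72), and in 3 of 6 at rest (-0.31 to 0.21). Tested on the longest annotated Ank3 CDS, the giant segment rose against the other segments by 0.93 (SE 0.10, adjusted p = 4.3e-09) with DHPG and by 1.79 (SE 0.12, adjusted p = 1.5e-11) under the knockdown, and not with TurboID-PSD95 in the KCl experiment (-0.40, SE 0.20, adjusted p = 0.14). That CDS has 938 nt outside the giant segment, and with TurboID-PSD95 the sign turned on the reference, since 5 of 6 pairs were above input when the giant segment was set against the segments of the transcript used here. Of the members, 4 had a longest segment that rose with DHPG, where 26% of 10624 genes did (Ank2, Ank3, Sptbn4 at 0.52 and Sptan1 at 0.26), and 2 under the knockdown (Ank2 and Ank3), where 13.4% of 10603 genes did. Without replicate 3 of the DHPG experiment the calls of Sptan1 (adjusted p = 0.13) and Sptbn4 (0.085) were lost, and that of Sptbn4 also without replicate 2 (0.082).

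**Figure D4:**
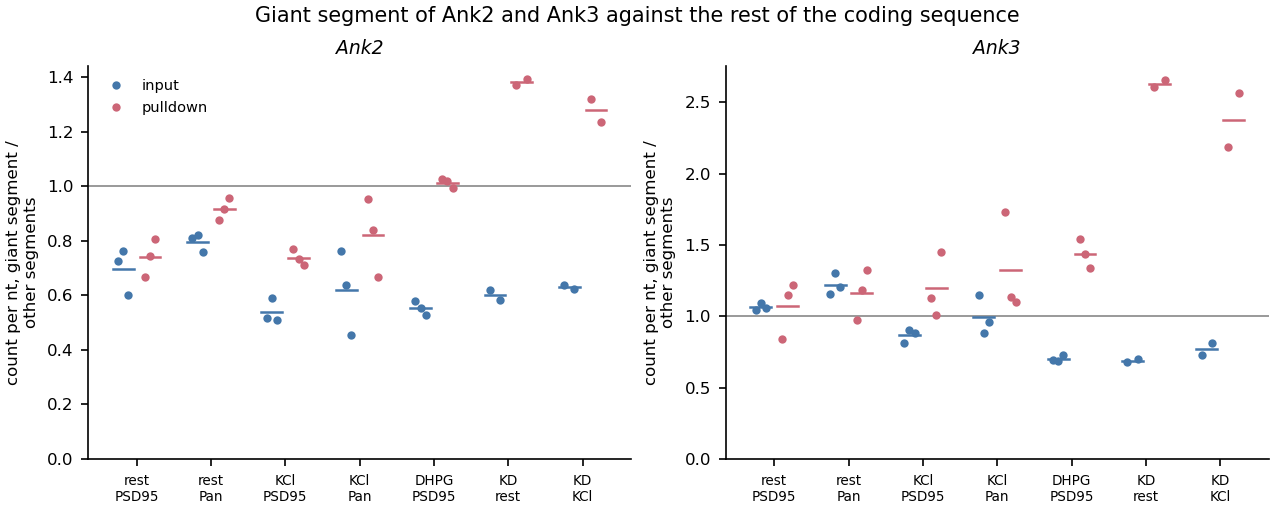
Count per nt of the giant segment of Ank2 and of Ank3 divided by that of the segments of the transcript used here other than the giant segment (vertical axis), per library in the 14 groups, inputs in blue and pulldowns in red. DHPG and knockdown pulldowns (0.992 to 1.39 for Ank2, 1.34 to 2.65 for Ank3) lie above all inputs of their experiments (0.528 to 0.636 and 0.678 to 0.811).

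Because the giant segment is so long, the transcript chosen for Ank3 sets the size of its enrichment. On the longest CDS, which holds the giant segment, Ank3 read 37.9, 39.3 and 39.1 CPM per kb in the DHPG inputs and 86.8, 87.0 and 77.7 in the pulldowns, a log2 fold change of 1.29 (SE 0.06, adjusted p = 3.7e-12) against 0.41 without it. In resting knockdown neurons the values were 38.1 and 37.6 against 166 and 161 (2.20, SE 0.08, adjusted p = 4.3e-17), and in depolarized ones 54.2 and 51.5 against 175 and 196 (1.90, SE 0.08, adjusted p = 2.0e-15). The direction was the same with both transcripts, and the size was not. The giant segment makes up 7674 of the 8612 nt of the longest Ank3 CDS, so the values on it largely describe that segment. On the longest Ank1 CDS the knockdown comparisons were called as well, at 1.501 (SE 0.37, adjusted p = 0.0013) after KCl and at 1.065 (SE 0.30, adjusted p = 0.0052) at rest, from resting levels of 2.51 and 2.42 CPM per kb in the inputs and 5.17 and 4.48 in the pulldowns.

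Across the table, the fold change of pulldown over input rose with CDS length. The Spearman correlation over genes, which are not independent replicates, was 0.53 for resting TurboID-PSD95, 0.51 for resting Pan-TurboID and 0.62 with DHPG. Of the genes with a CDS of at least 5000 nt, 34.8% were higher and 2.16% lower in the resting TurboID-PSD95 pulldown (601 tested), and 81.6% were higher and 8.25% lower with DHPG (582 tested). All members but Ank1 exceed that length on the transcript used here, and the median CDS is 1101 nt. With DHPG, Sptan1 and Sptbn1 were hence among the 8.25% of long genes that fell. Ank2 (0.55) and Ank3 (0.41) lay below the median of the long genes (1.11), while Sptbn4 (1.87) lay above it. For Ank3 this held on the transcript used here, whereas its value on the longest CDS lay above that median. The part of CDS length in the members' values was not tested beyond removal of the trend.

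**Figure D5:**
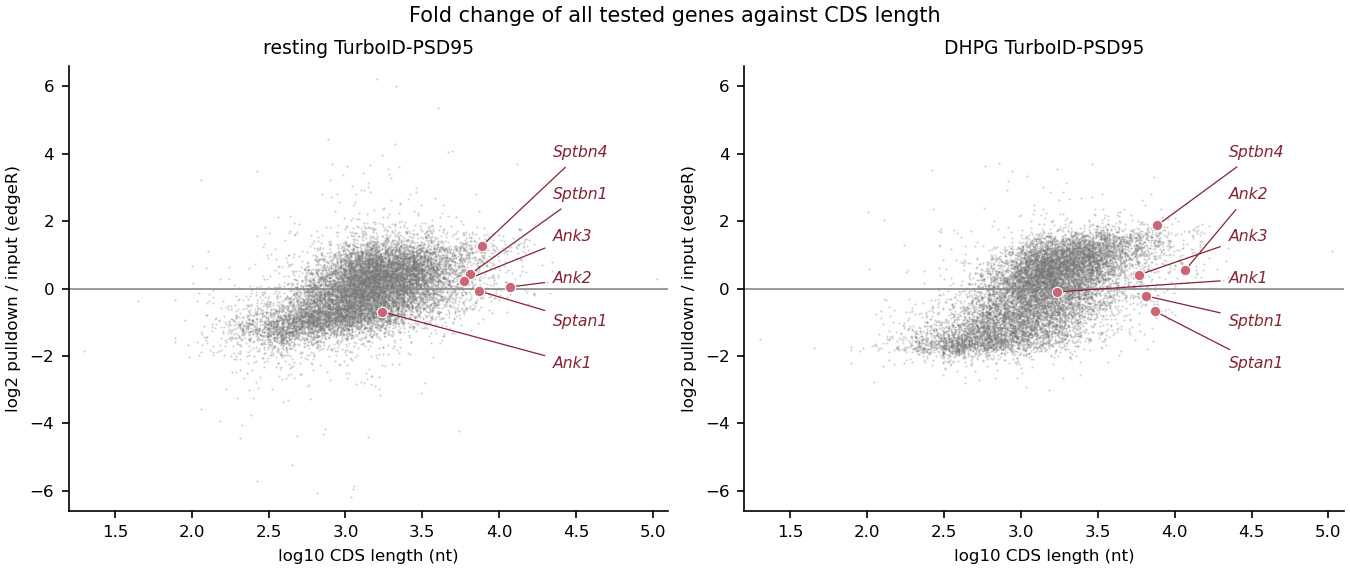
Fitted log2 fold change of pulldown over input (vertical axis) against log10 of CDS length in nt (horizontal axis) for all genes tested, in resting TurboID-PSD95 neurons (left) and with DHPG (right), with the 6 members in red. Long genes tend upwards in both panels, and with DHPG Sptan1 and Sptbn1 lie below 0 among genes of their length while Sptbn4 lies near the top.

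Partners of the membrane skeleton were described from a list of 26 genes. In resting TurboID-PSD95 neurons 6 of 25 tested partners were higher in the pulldown and 1 was lower, and their median was -0.24 (-0.05 over all genes). Over all genes 11.5% were higher and 13.5% lower. Neither here nor below were partners set against genes of their CDS length, with which fold changes rose. The voltage-gated sodium channels Scn8a (1.37, SE 0.28, adjusted p = 0.0036) and Scn2a (1.16, SE 0.31, adjusted p = 0.011), which ankyrin-G holds at the axon initial segment, were higher. So were the adducins Add1 (0.44) and Add2 (0.61), which cap actin at spectrin junctions, and the microtubule proteins Trim46 (0.55) and Camsap2 (0.53). Mapre3, which binds microtubule ends, was at -0.56 (SE 0.21, adjusted p = 0.053). Tmod2, a tropomodulin that caps the pointed ends of actin filaments, was lower (-0.95, SE 0.23, adjusted p = 0.0076). With Pan-TurboID Scn8a (1.2, SE 0.28, adjusted p = 0.0197) was the 1 partner called higher, and none was lower, beside 4.52% and 5.01% of all genes.

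With DHPG 7 of 24 tested partners were higher and 11 lower, with a median of -0.26, where 40.5% of all genes were higher and 39.3% lower. Scn8a (1.53, SE 0.07, adjusted p = 2.3e-12), the potassium channel Kcnq3 (1.40) and Scn2a (1.22) led the rise. The ankyrin-bound adhesion molecules Nrcam (-1.25), L1cam (-0.50) and Chl1 (-0.39) were lower, and the tropomodulins Tmod1 (-0.84), Tmod2 (-1.50, SE 0.06, adjusted p = 6.8e-13) and Tmod3 (-0.87) were lower too. In resting knockdown neurons 6 partners were higher, led by Scn8a (1.48) and Kcnq3 (1.47), and 9 were lower, with Tmod2 at -1.41 and Nrcam at -1.16, beside 22.1% of genes higher and 23.4% lower. After KCl under the knockdown the counts were 6 and 13, with Scn2a at 1.29 and Tmod2 at -1.89, beside 24% and 24.8% of genes.

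Some partners were also called in the response to KCl. In the inputs of the KCl experiment 5 of 25 were lower after KCl and none higher, where 9.02% of genes were lower and 6.33% higher: Tmod2 (-0.74, SE 0.16, adjusted p = 0.0028), Scn8a (-0.71), Dmtn (-0.62), Epb41l3 (-0.61) and Add2 (-0.53). Dmtn (dematin) bundles actin, and Epb41l3 belongs to the protein 4.1 family, which ties spectrin to actin. Under the knockdown, 1 partner was higher and 5 were lower in the inputs after KCl, with Epb41l2, another protein 4.1, at 0.47 and Add2 at -0.57, beside 8.91% and 10.3% of genes. In the pulldowns 2 were higher and 7 lower, with Scn2a at 0.76 and L1cam at -1.05, beside 10.2% and 12% of genes. In the TurboID-PSD95 pulldowns of the KCl experiment no partner was called by edgeR's quasi-likelihood test (6 of 25 at an unadjusted p under 0.05, and 1 called by DESeq2). In the Pan-TurboID pulldowns 2 of 25 were lower, Dmtn (-0.81, SE 0.23, adjusted p = 0.036) and Tmod2 (-0.83), beside 5.03% of genes called in either direction.

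The genes whose levels followed each member most closely over the 14 group means were found among 7627 genes by Pearson's r of log2 CPM. They were Psmc6 (0.93) and Qrich1 (0.93) for Sptan1, Rabgap1 (0.93) and Upf1 (0.89) for Sptbn1, Clcn7 (0.95) and Ogdh (0.95) for Sptbn4, Ephb1 (0.96) and Thoc2 (0.95) for Ank3, Xpnpep3 (0.86) and Ahctf1 (0.82) for Ank2, and Rims2 (0.87) and Nelfa (0.86) for Ank1. Among the members themselves Ank2 and Ank3 were closest (0.77), then Sptan1 and Sptbn1 (0.68), and the most opposed were Ank1 and Ank3 (-0.64), then Sptan1 and Sptbn4 (-0.49). Ank1 was taken here on the decay transcript, with few counts, and its sign of pulldown over input depended on the transcript. Correlations on the longest CDS were not computed. The groups share experiments and fractions, so these values are descriptions.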

How the data were processed

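The authors trimmed reads with Rfastp, separated libraries with fastq-multx, aligned to mm10 with Rsubread and removed ribosomal RNA and duplicates, per the file headers. They counted 5′ ends of reads of 25 to 100 nt with plastid (offset 0) in CDS segments of UCSC known genes. The deposited counts are raw, per segment and per library, not pooled. The version of plastid and the use of strand or of multiply mapped reads are not given in the sources used here.

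Of 67238 coding transcripts 66750 (99.3%) were matched to GENCODE M21, and 488 were left out. The longest transcript of each gene was used. Counts were tested in R 4.3.3 with edgeR 4.0.16 (quasi-likelihood, robust, TMM, filterByExpr) at an FDR of 0.05 over all genes. Fits held 24 libraries (KCl), or the libraries of the groups compared. By the protocol an input and its pulldown come from 1 lysate. The same-numbered input and pulldown of a bait and state were taken as such a pair, and these pairs were the block for pulldown over input. For the KCl response the block was the replicate number within bait and fraction. Deviations of same-numbered pairs correlated at 0.138 to 0.463 in the KCl experiment and at -0.0634 to 0.00621 with DHPG (15 pairs together), and of other pairs at -0.319 to 0.0912 (30 pairs). For the 4 knockdown pairs the values were -0.000964 to 0.0148. The counts thus showed no pairing by number with DHPG or under the knockdown. Part shifts were tested as the interaction of part and fraction. P-values measure the spread between these samples, which may be technical. Alternatives were RLE scaling, the likelihood ratio test, DESeq2 1.42.0, no count filter, removal of the CDS length trend (lowess, span 0.3), CDS totals without TMM, other transcripts, other divisions of the CDS, the replicate block and leaving out replicates. CDS totals without TMM, the giant Ank3 segment on its longest CDS, the replicate block on parts of the CDS and single knockdown libraries were added after seeing the data. Scripts were tested on simulated data. The members and lists were chosen with earlier results of these data known. Named genes were the members, the partners with the smallest p in each direction and, chosen after their values were seen, further partners. Some partners were left out of the list, not for their values, and are not reported here. Nearest genes were taken among genes with a mean log2 CPM of at least 4.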

Additional observations from a re-analysis of the deposited data

Results flagged for a closer look

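Among the 5 members with at least 50 counts in every library, Sptbn1 was the only gene whose same-numbered pairs all moved one way in some sets and all the opposite way in others, by log2 ratios of pulldown to input in shares of CDS counts. In resting neurons all 3 TurboID-PSD95 pairs lay above 0 (mean 0.352, from 0.0165 to 0.683), and so did all 3 Pan-TurboID pairs (mean 0.421, from 0.337 to 0.565). All 3 DHPG pairs lay below 0 (mean -0.429, from -0.568 to -0.355), as did both pairs of the resting knockdown (mean -0.923, from -0.927 to -0.919) and both of the depolarized knockdown (mean -0.873, from -0.985 to -0.76). The difference was not tested, nor was the pattern counted over all genes. The counts showed no pairing by number with DHPG or under the knockdown, so the pairs of those sets are not matched units. Moreover, the resting TurboID-PSD95 set includes a pair close to 0 (0.0165). In this last pair the median of all genes with at least 50 counts in both libraries was higher, at 0.124.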

How the results depend on the processing

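Of 1808 values of members under alternatives, 1700 kept their side of the threshold (131 of them changed sign with no call on either side), 58 lost a call, 36 gained a call and 14 changed sign with a call. Of 304 counts of called members, 261 stayed within 1.5 times. With the CDS length trend removed, Ank2 gave -0.63 (DHPG), -0.46 (resting knockdown), -0.59 (depolarized knockdown) and -0.0209 (knockdown pulldowns over pulldowns without knockdown), Ank3 gave -0.51, -0.37, -0.33 and -0.0245, and Sptbn4 -0.0069 in the depolarized knockdown. The count of members then was 0 in resting Pan-TurboID and in both depolarized comparisons of pulldown with input, and 1 each in the KCl response of inputs (Sptan1), in DHPG inputs over resting inputs (Ank3) and in knockdown inputs over inputs without knockdown (Sptbn4, lower). On the longest CDS and on the transcript with the highest count, Ank1 gave 1.191 and 1.193 with DHPG and 1.065 and 1.067 in the resting knockdown, and the count was 1 in the KCl response of inputs, 1 in that of knockdown pulldowns (Sptan1) and 1 in knockdown inputs over inputs without knockdown. With the replicate block 3 members were called in resting Pan-TurboID, 2 in depolarized TurboID-PSD95 and 3 in depolarized Pan-TurboID. For position the block, added after seeing the data, gave 6 with TurboID-PSD95 and 5 with Pan-TurboID, and for the longest segment 1 with Pan-TurboID (Ank2). It changed no other call, and no block was possible across experiments. For position, 2 parts of the CDS in place of 3 gave 1 call with either bait. The first and last segment gave 2 (TurboID-PSD95), 3 (DHPG) and 2 (knockdown), with 3 or 4 members tested.

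Leaving out replicates gave 0 to 1 called members in each comparison of pulldown with input of the KCl experiment, 0 to 2 in the KCl response of inputs (Ank2 between -0.49 and 0.33) and of TurboID-PSD95 pulldowns, 2 to 4 in the KCl response of knockdown inputs, 1 to 2 in that of knockdown pulldowns and 0 to 3 in knockdown pulldowns over pulldowns without knockdown. For position the ranges were 1 to 3 with TurboID-PSD95 and 0 to 3 with Pan-TurboID, and for the longest segment 0 to 1 with TurboID-PSD95 and 2 to 4 with DHPG. The cause was not tested. Leaving out a knockdown library leaves 1 in its group, assumed to vary like the other groups. Depth limits Ank1, with 6 to 136 counts per library.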
